A study of Homo sapiens with 9 samples.

Results

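The comparison of EMX1-X1 overexpression with vector control in SNU-398 cells was made on 6 of the 9 RNA-seq libraries, 3 of each group, and covered every expressed gene. Of 60642 gene names listed, 18574 passed the expression filter and were tested. SNU-398 is a human hepatocellular carcinoma (HCC) cell line. All 9 libraries came from cells infected with lentivirus and selected for puromycin resistance. The vector control cells were labelled as wild type, and the other groups carried EMX1-X1 or the full-length form, EMX1-FL, as a stable overexpression. The labels did not say whether a line was 1 clone or a pool, or whether libraries with different numbers came from separate cultures, so the p-values below measure the spread between these libraries, which may be technical.

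EMX1 encodes a homeodomain transcription factor that is best known from the developing cerebral cortex. Homeodomains bind short AT-rich DNA sequences, with TAATTA as a common core. The study describes EMX1-FL and EMX1-X1 as products of the same gene that differ in their terminal exon, so that the ends of the proteins differ. The question put to these libraries was which genes change when EMX1-X1 is raised, and gene lists for vessel growth, mesenchymal differentiation and stem cells were included because the study takes up these themes.

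The cells were first checked against marker genes. The labelled cell type is hepatocellular carcinoma, but TTR and AFP, plasma proteins of hepatocytes and of fetal liver, had 0 counts in all 9 libraries, and HNF4A, a hepatocyte transcription factor, had at most 1 count in any library. ALB was measured at a mean of only 0.607 counts per 1000000 counts (CPM) in vector control cells, while the hepatoma marker GPC3 stood at 14.8 CPM. Among mesenchymal genes in vector control cells, VIM was at 1260 CPM and FN1 at 168 CPM, but CDH2 was at 13 CPM and ZEB1 at 0.926 CPM. Among genes of fibroblasts or stellate cells, LUM was at 491, DCN at 87.2, COL1A1 at 32.4 and ACTA2 at 21.4 CPM. PDGFRA and PDGFRB, of the same set, were at only 1.68 and 1.38 CPM. The defining endothelial gene CDH5 had 0 counts in all 9 libraries, PECAM1, VWF, KDR, TEK and CLDN5 had at most 9 counts in any library, and the immune markers PTPRC, CD3E and LYZ had at most 4.

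The libraries of a group were not alike. The first principal component of log2 CPM held 39.6% of the variance, and its gene weights followed the GC content of the transcripts with a Spearman rho of 0.818 across genes, which are not independent replicates. EMX1-X1 replicate 1 and vector control replicates 1 and 2 lay on its negative side (side A), and EMX1-X1 replicates 2 and 3 and vector control replicate 3 lay on its positive side (side B). These sides were read from the data and are not groups of the study. Differences within each side are therefore given beside the results, with side A setting 1 EMX1-X1 library against 2 vector control libraries and side B setting 2 against 1. Total counts were close, between 23132559 and 25197970 in the 6 libraries.

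EMX1 itself (chr2:72916260-72936071, GRCh38, plus strand) separated the groups in every library. It was measured at 9.34, 9.99 and 12.9 CPM in the vector control libraries and at 145, 294 and 288 CPM in the EMX1-X1 libraries. The groups did not overlap, and EMX1-X1 replicate 1 was the lowest of the EMX1-X1 libraries. EMX1 rose by 4.50 on the log2 scale (SE 0.35, adjusted p = 0.00047 in the edgeR fit). The exact two-sided permutation test gave p = 0.1, the smallest that 3 against 3 libraries allow. The EMX1-FL libraries held 251, 135 and 145 CPM, and their difference from EMX1-X1 was -0.45 on the log2 scale (SE 0.30, adjusted p = 0.618). Counts per gene do not separate the 2 forms of the transcript.

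At the study's threshold, an unadjusted p under 0.05 with at least a 2-fold change, 464 genes were called, or 2.5% of those tested. Of these, 363 genes, 1.95% of those tested, were higher in EMX1-X1 cells and 101, or 0.544%, were lower. With adjustment over all 18574 genes, only EMX1 passed, which is 0.00538%. An unadjusted p under 0.05 was found for 1506 genes, or 8.11% of those tested. DESeq2 called 48 genes after adjustment. With an offset for transcript GC content 256 genes were higher and 129 lower, and without EMX1-X1 replicate 1 the counts were 660 and 246. The count of higher genes was 227 without EMX1-X1 replicate 2, and the count of lower genes was 182 without vector control replicate 3. Individual genes below are therefore described by their values in each library, and "called" refers to the unadjusted rule. Every adjusted p given below, unless another method is named, is from the edgeR quasi-likelihood fit, adjusted by Benjamini and Hochberg's method across the whole table.

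The response was small for most genes. The median log2 fold change was 0.01, the middle 90% of genes lay between -0.58 and 0.85, and 845 genes moved by 2-fold or more. The 3 EMX1-X1 libraries all stood above the 3 vector control libraries for 1491 genes, 8.03% of those tested, and all stood below them for 1239, or 6.67%. Among called genes, 279 of the 363 higher and 92 of the 101 lower had groups that did not overlap. Calls fell mostly on weakly expressed genes. Under a mean of 1 CPM, 147 of 3304 genes were called higher and 73 lower, whereas at 100 CPM or more 4 of 2455 were called higher and 0 lower. The plot of fold change against p shows EMX1 standing alone at the top.

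**Figure D1:**
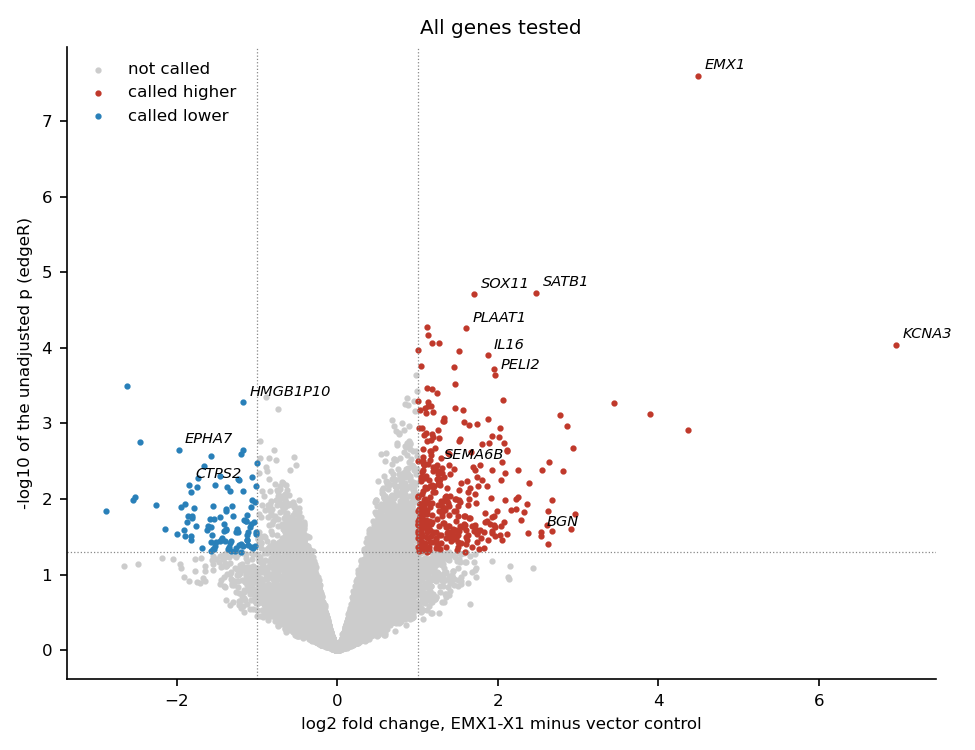
Each point is 1 of the 18574 genes tested, with the log2 fold change of EMX1-X1 minus vector control on the x axis and -log10 of the unadjusted edgeR p on the y axis; dotted lines mark a log2 fold change of 1 in either direction and p of 0.05. The 363 genes called higher are red, the 101 called lower are blue, and EMX1 is the highest point, at a log2 fold change of 4.50.

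Called genes differed from the rest in base composition and type. The median GC content of the longest annotated transcript was 54.8% among genes called higher, 43.8% among genes called lower and 48.2% among all genes tested. Protein-coding genes made up 70.3% of the genes called higher, 29.7% of those called lower and 74.8% of all genes tested with a known type. The median fold change climbed with GC content, from -0.18 between 35 and 40% GC to 0.55 between 65 and 70% GC. Over the same range the share of genes called higher went from 0.714% to 5.99%, and the share called lower went from 0.952% to 0.

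The climb with GC content was not seen on both sides of the first component. On side A the median difference was -0.01 between 35 and 40% GC and -0.02 between 65 and 70% GC. On side B the corresponding medians were -0.03 and 0.66. Called genes held their direction on both sides: of the 363 genes called higher, 348 were also higher on side A and 363 on side B, with medians of 0.94 and 1.36, and all 101 called lower were lower on both, with medians of -1.09 and -1.25. The choice of these genes already used the same libraries, so this is a description.

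**Figure D2:**
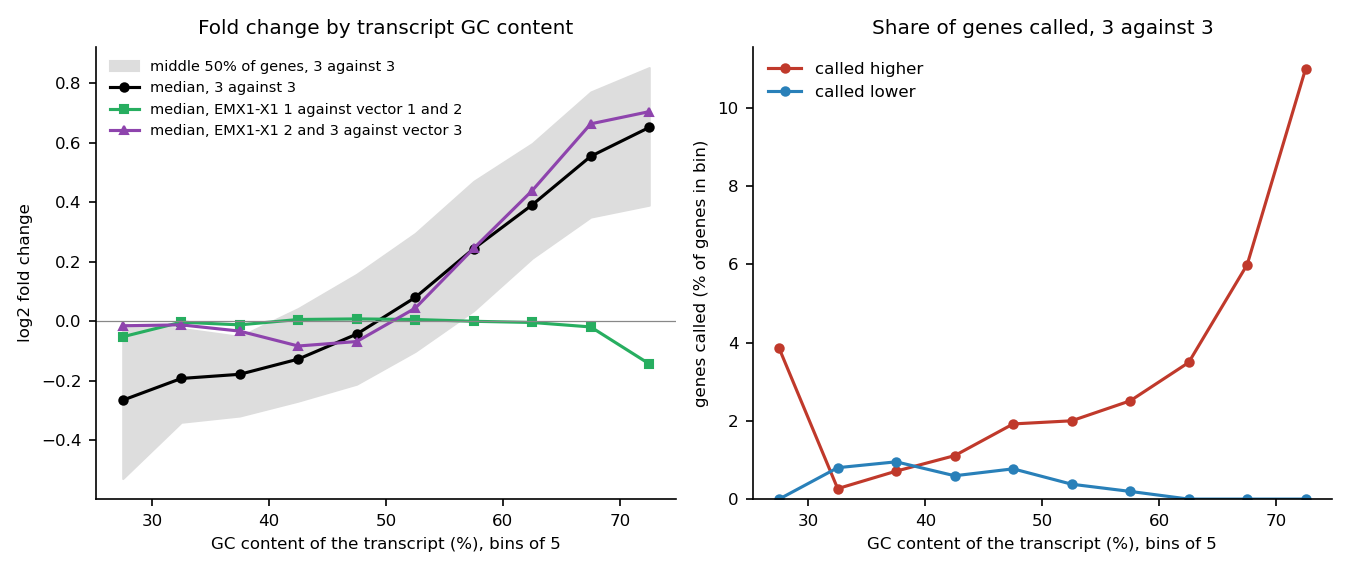
Left, median log2 fold change (y axis) of genes in bins of transcript GC content (x axis, %) for 3 against 3 libraries (black, with the middle 50% of genes in grey), for EMX1-X1 replicate 1 against vector control replicates 1 and 2 (green) and for EMX1-X1 replicates 2 and 3 against vector control replicate 3 (purple). Right, the percentage of genes in each bin that were called higher or lower; the green line stays near 0 up to 70% GC while the black and purple lines climb, and the share called higher climbs with them above 35% GC.

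The genes called higher with the smallest p were led by developmental regulators. This ranking took only called genes with groups apart, so the lack of overlap and the 2-fold change were set by that choice. SATB1 (chr3:18345377-18445588), a chromatin organiser with a homeodomain, was at 0.771, 0.48 and 0.453 CPM in vector control and at 2.16, 3.41 and 4 CPM in EMX1-X1 libraries. SOX11 (chr2:5692384-5701385), a SRY-related transcription factor of developing neurons, was at 1.54, 1.66 and 1.57 CPM against 4.79, 6.23 and 4.56 CPM. Neither gene's groups overlapped, and every EMX1-X1 library was well over the highest control. SATB1 was higher by 2.48 (SE 0.36) and SOX11 by 1.71 (SE 0.25) on the log2 scale, each with an adjusted p of 0.12. Both differences were present on side A, at 1.69 and 1.53, and on side B, at 2.81 and 1.71.

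SNAI2 (chr8:48917598-48921740), a repressor of epithelial genes in mesenchymal transition, was at 3.64, 3.19 and 2.64 CPM in vector control and at 9.11, 7.02 and 6.62 CPM in EMX1-X1 cells. All EMX1-X1 libraries were above all controls (log2 fold change 1.27, SE 0.22, adjusted p = 0.185). EMX1-FL cells held still more, at 12.1, 12.9 and 13.3 CPM, and the difference of EMX1-FL from EMX1-X1 was 0.75 on the log2 scale (SE 0.21, adjusted p = 0.611). TGFBR2 (chr3:30606601-30694142), the type II TGF-beta receptor, was at 2.7, 2.14 and 2.27 CPM in vector control and at 8.41, 4.78 and 6.3 CPM in EMX1-X1 libraries. The lowest EMX1-X1 library was well over the highest control (log2 fold change 1.45, SE 0.27, adjusted p = 0.233), and EMX1-FL libraries were at 6.12, 8.76 and 9.05 CPM.

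A pair of pore-forming potassium channel subunits stood near the top of the same ranking. KCNMA1 (chr10:76869601-77638369), the large-conductance calcium-activated channel, was at 19.2, 18 and 20.6 CPM in vector control and at 33.5, 45.8 and 46.5 CPM in EMX1-X1 cells (log2 fold change 1.12, SE 0.18, adjusted p = 0.185). KCNA1 (chr12:4909905-4918256), a voltage-gated subunit, was at 3.64, 4.19 and 3.59 CPM against 9.49, 8.77 and 7.71 CPM (log2 fold change 1.19, SE 0.20, adjusted p = 0.185). The groups were apart for both, with EMX1-X1 replicate 1 lowest for KCNMA1 and highest for KCNA1. KCNA3, another voltage-gated subunit, had 0 counts in all 3 vector control libraries and 18, 13 and 17 counts in EMX1-X1 libraries. Against a floor of 3 counts over the control group it was at least 15.5-fold higher.

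PTPRK (chr6:127968779-128520674), a receptor-type tyrosine phosphatase, was at 13.4, 14.6 and 13.8 CPM in vector control libraries and at 35.2, 28.2 and 27.9 CPM in EMX1-X1 libraries. The control values were tight and lay below the lowest EMX1-X1 library (log2 fold change 1.13, SE 0.19, adjusted p = 0.185). MMP2 (chr16:55389700-55506691), a gelatinase that degrades matrix, was at 1.58, 2.23 and 3.13 CPM against 6.32, 6.36 and 7.19 CPM. Its groups were apart as well (log2 fold change 1.51, SE 0.27, adjusted p = 0.185). PLAAT1 (chr3:193241128-193277738), a phospholipid acyltransferase, was at 1.07, 0.96 and 1.32 CPM against 3.5, 3.24 and 3.51 CPM, the EMX1-X1 libraries lying close together (log2 fold change 1.61, SE 0.26, adjusted p = 0.185).

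The remaining genes of this ranking were SLC35D3, SHROOM3, IL16, PELI2 and AC114296.1. SHROOM3, an actin-binding protein of apical constriction, was at 8.61, 7.77 and 8.86 CPM in vector control and at 16.4, 19.2 and 16.5 CPM in EMX1-X1 libraries, a log2 fold change of 1.04 (SE 0.19, adjusted p = 0.233). IL16, a cytokine, was at 1.33, 0.786 and 1.9 CPM against 4.54, 4.41 and 5.82 CPM, but 36.6% of its exon bases are shared with another gene, and reads there were not counted. PELI2, an E3 ubiquitin ligase, was at 0.814, 0.96 and 0.824 CPM against 4.87, 3.28 and 2.02 CPM, with EMX1-X1 replicate 3 the closest to control. Differences for these 5 genes lay between 1.01 and 1.96 on the log2 scale, and no group overlapped, as the rule for the ranking required.

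16 genes passed an adjusted p under 0.05 with at least a 2-fold change in all 4 of the fits with DESeq2, with a GC offset, with the side of the first component as a covariate, and with that covariate and the offset together. They were EMX1, SATB1, SOX11, KCNMA1, PLAAT1, PTPRK, SNAI2, KCNA1, MMP2, IL16, TGFBR2, PELI2, ADAMTS9, SDC2, PALLD and TDO2, and all were higher in EMX1-X1 cells. The last 3 are outside the rule for named genes and are given because they belong to this set. In the main fit only EMX1 passed, and the adjusted p of the others lay between 0.12 for SATB1 and 0.358 for TDO2. Only EMX1 passed with the replicate block, and 4 genes passed with the GC offset and the block together. The 4 fits gave more adjusted calls than the main fit. The covariate and the offset were both estimated from these same libraries, so the set is a description. SDC2, a heparan sulfate proteoglycan of the cell surface, was at 7.58, 6.76 and 6.35 CPM in vector control against 18.7, 14.5 and 13.7 CPM. TDO2, a tryptophan-degrading enzyme of liver, was at 11.9, 11.7 and 9.31 CPM against 30.9, 17.6 and 18.1 CPM. Neither overlapped between groups, and EMX1-X1 replicate 1 was the highest of the 6 libraries for both.

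**Figure D3:**
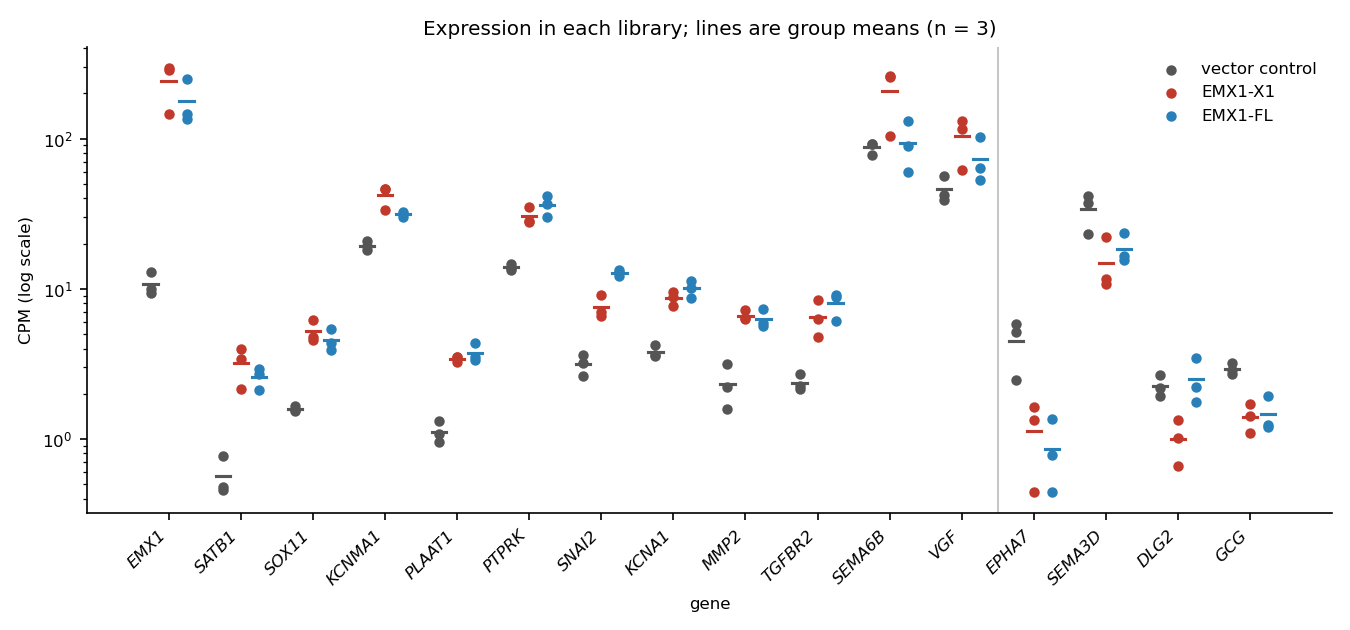
CPM on a log axis (y) for 16 named genes (x); each point is 1 library, coloured by group, and each short line is the mean of 3. Genes left of the grey line were called higher and those right of it lower in EMX1-X1; for SATB1, SOX11, PLAAT1, PTPRK and SNAI2 every EMX1-X1 point lies above every vector control point, while for SEMA6B EMX1-X1 replicate 1, at 104 CPM, lies near the controls.

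Among genes called higher with groups apart, the 4 with the largest differences in CPM after EMX1 had transcripts of 64.1 to 70.6% GC. SEMA6B, a transmembrane guidance ligand with 67.7% GC, was at 92.3, 77.6 and 92.5 CPM in vector control and at 104, 261 and 258 CPM in EMX1-X1 libraries. SEMA6C, its paralog, was at 76.8, 71.2 and 71.5 CPM against 103, 193 and 173 CPM. In both, the groups did not overlap, but EMX1-X1 replicate 1 sat just above the controls and replicates 2 and 3 sat far above. The differences on side A were 0.29 and 0.48 and those on side B were 1.49 and 1.35 for SEMA6B and SEMA6C. With the GC offset the log2 fold change of SEMA6B went from 1.25 to 0.65 and that of SEMA6C from 1.09 to 0.63.

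VGF, a precursor of secreted neuropeptides with 70.6% GC, and TNFRSF12A, the receptor for the cytokine TWEAK, behaved alike. VGF was at 39.1, 41.9 and 56.6 CPM in vector control against 62.2, 116 and 132 CPM, and TNFRSF12A was at 27, 27.1 and 33.5 CPM against 48.4, 89.7 and 92 CPM. EMX1-X1 replicate 1 was again the lowest of its group in both. Their log2 fold changes were 1.17 (SE 0.31, adjusted p = 0.439) and 1.39 (SE 0.38, adjusted p = 0.462), and with the GC offset they were 0.57 and 0.93. The part of GC content in these differences was not tested beyond these values.

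Fewer genes were called lower, and they were mostly weakly expressed. Those ranked here were again taken only from called genes with groups apart. EPHA7 (chr6:93240020-93419559), a receptor for ephrin-A ligands, was at 5.78, 5.15 and 2.47 CPM in vector control and at 1.62, 1.33 and 0.444 CPM in EMX1-X1 cells (log2 fold change -1.98, SE 0.51, adjusted p = 0.424). SEMA3D, a secreted semaphorin, was at 37.3, 41.7 and 23 CPM against 22.1, 11.6 and 10.8 CPM (log2 fold change -1.20, SE 0.31, adjusted p = 0.433). For SEMA3D the highest EMX1-X1 library came within 1 CPM of the lowest control, whereas for EPHA7 the gap was wider relative to the level. The adhesion molecule NECTIN3 fell by 1.46 on the log2 scale (SE 0.42, adjusted p = 0.482), from 5.22, 4.54 and 2.97 CPM to 2.08, 1.54 and 1.01 CPM.

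GCG, which encodes proglucagon, was at 3.21, 2.88 and 2.72 CPM in vector control and at 1.71, 1.41 and 1.09 CPM in EMX1-X1 cells, with groups apart (log2 fold change -1.06, SE 0.31, adjusted p = 0.482). B3GLCT, a glucosyltransferase of the secretory pathway, was at 4.58, 3.93 and 5.4 CPM against 2.45, 2.08 and 1.62 CPM, also apart. CTPS2, a CTP synthase, had the lowest levels of this group in EMX1-X1 cells, at 0.333, 0.208 and 0.767 CPM against 1.5, 2.4 and 0.865 CPM. HMGB1P10 and ACTG1P22 are pseudogenes whose reads can also come from their parent genes, so their log2 fold changes of -1.17 and -1.57 are uncertain. PSMA2, C1orf54 and LINC01580 share 34.5%, 38.6% and 38.6% of their exon bases with other genes, and A2M-AS1 shares 19.03% with genes that unstranded counting cannot tell from it. AC011447.7, which shares 20% of its exon bases with another gene, completed the 15 lower genes together with MALRD1 and DLG2.

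Promoters of called genes were searched for TAATTA, which reads the same on both strands, in the 250 bases before and 50 bases after each start site. The first promoter that RefSeq (GRCh38.p14) lists for a gene was used, which was found for 60 of the 81 named genes, and 2 of those 60 held the motif. Both belong to genes called lower, MALRD1, a membrane protein with lipoprotein receptor repeats, and DLG2, a scaffold of synapses. They are shown because they are the named promoters with a homeodomain core, which is in capitals. It starts 75 bases before the start site in MALRD1 (chr10:19048551-19048850, plus strand) and 82 bases before it in DLG2 (chr11:84273231-84273530, minus strand). The DLG2 stretch is 1 of 9 start sites listed for that gene and the only one of them with the motif, and it lies 1354.6 kb inside the gene as counted, so it is the start of a shorter transcript that gene counts do not separate from the longer ones.
MALRD1: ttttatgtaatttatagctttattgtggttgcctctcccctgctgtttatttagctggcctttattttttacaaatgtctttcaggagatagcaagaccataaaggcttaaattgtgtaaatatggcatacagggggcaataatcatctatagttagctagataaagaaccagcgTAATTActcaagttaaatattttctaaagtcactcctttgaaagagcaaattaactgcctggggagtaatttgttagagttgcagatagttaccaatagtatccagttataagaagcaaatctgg
DLG2: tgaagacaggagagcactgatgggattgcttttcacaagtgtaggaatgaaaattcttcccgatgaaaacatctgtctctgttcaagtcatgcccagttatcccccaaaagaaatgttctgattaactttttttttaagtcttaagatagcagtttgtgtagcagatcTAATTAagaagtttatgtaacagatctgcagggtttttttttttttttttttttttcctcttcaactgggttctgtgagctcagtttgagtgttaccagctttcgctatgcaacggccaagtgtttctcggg

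MALRD1 was at 2.61, 3.05 and 3.87 CPM in vector control and at 1.62, 0.665 and 1.74 CPM in EMX1-X1 libraries, with groups apart (log2 fold change -1.24, SE 0.37, adjusted p = 0.482). DLG2 was at 2.18, 1.92 and 2.68 CPM against 1.33, 0.665 and 1.01 CPM, also apart (log2 fold change -1.17, SE 0.37, adjusted p = 0.505). EMX1-FL cells held 1.77, 2.23 and 3.46 CPM of DLG2, overlapping the controls, and the difference of EMX1-FL from EMX1-X1 was 1.31 on the log2 scale (SE 0.37, adjusted p = 0.611). With the first promoter of each gene, the motif was found for 5 of 197 genes called higher (2.54%), for 2 of 28 called lower (7.14%) and for 241 of all 11530 genes tested that have one (2.09%). With every promoter listed for a gene, the corresponding shares were 4.06%, 14.3% and 3.36%, and 4.84% of all 35116 promoters of the table held it. The shares of the lower genes rest on 2 and 4 genes. The first promoters had a median GC content of 69% among genes called higher, 58.8% among those called lower and 65.3% among all tested. TAATTA holds no G or C, and the part of base composition in these shares was not tested. A match is a description of letters and shows no binding.

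Gene lists were read against all genes tested, of which 1.95% were called higher and 0.544% lower, 51.1% had a positive fold change and 8.03% had every EMX1-X1 library above every control. The lists are small, and the called count moved by over 1.5 times for 34 of the 47 when 1 library was left out and for 15 with the GC offset.

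Genes of vessel growth were taken in 2 lists. Among VEGF and angiopoietin ligands and receptors, 0 of 10 members tested were called and the median log2 fold change was 0.06, or -0.14 with the GC offset. VEGFA, the main ligand, was at 86.3, 86.9 and 93.8 CPM in vector control against 73.7, 84.1 and 85.7 CPM, a slight shift with groups just apart (log2 fold change -0.13, SE 0.19, adjusted p = 0.843). NRP2, a coreceptor, was at 390, 412 and 428 CPM against 273, 286 and 298 CPM, clearly apart but short of the 2-fold rule (log2 fold change -0.52, SE 0.14, adjusted p = 0.462). Both were picked after their values were seen.

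Among the other regulators of vessel growth, 5 of 33 members tested were called higher and 0 lower, where 1.95% of all genes were called higher, with a median of 0.59 against 0.01 over all genes. With the GC offset 3 were called and the median was 0.21, against -0.03 over all genes. The count was also 3 with the side of the first component as a covariate and without vector control replicate 2, EMX1-X1 replicate 2 or EMX1-X1 replicate 3. The 5 were TGFBR2, given above, CCN1, ADM, S1PR1 and PDGFB. CCN1, a matricellular protein, was at 37.2, 31.4 and 38.3 CPM in vector control against 53.6, 73.6 and 86.8 CPM, and ADM, the vasodilator peptide adrenomedullin, was at 8.14, 8.55 and 10.7 CPM against 13.3, 21.9 and 24.5 CPM. S1PR1, a receptor for sphingosine-1-phosphate, was at 1.93, 1 and 1.65 CPM against 2.66, 3.82 and 3.23 CPM. PDGFB, a growth factor for mural cells, stayed under 1 CPM in all 6 libraries. The groups of all 5 were apart. The endothelial markers named above, such as CDH5, were near 0. The 4 tested members of the endothelial list together held 43.6 to 63.5 CPM in vector control and 47.9 to 99.4 CPM in EMX1-X1 libraries. Of these 0 were called, all 4 had a positive fold change, and their median of 0.59 was 0.27 with the GC offset.

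Matrix genes were taken by family. Collagen chains had 2 of 28 members called higher, COL6A3 and COL4A2, against 1.95% of all genes, and 24 of 28 positive against 51.1%, with a median of 0.47 that was 0.17 with the GC offset. The called count was 1 with the offset and without EMX1-X1 replicate 2 or vector control replicate 1, and 4 without EMX1-X1 replicate 1. Neither chain passed after adjustment. COL6A3 was at 3.34, 2.79 and 1.69 CPM in vector control against 5.16, 8.48 and 7.92 CPM, and COL4A2, a basement membrane chain, at 11, 14 and 14.7 CPM against 21, 33 and 31.3 CPM. EMX1-X1 replicate 1 was the lowest of its group for both chains, without overlap with the controls. Of 34 other matrix proteins, TNC, FRAS1, VCAN, TNXB and BGN were called higher and 0 were lower, with a median of 0.26 that was 0.17 with the offset. The count of 5 was 3 without EMX1-X1 replicate 1 or vector control replicate 3.

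TNC, tenascin C, was at 1.2, 1.53 and 0.865 CPM in vector control against 3.08, 3.87 and 3.72 CPM, and VCAN, the proteoglycan versican, at 4.58, 4.23 and 2.55 CPM against 9.4, 8.02 and 6.34 CPM. Their groups were apart, whereas those of TNXB overlapped, with EMX1-X1 replicate 1 at 3.16 CPM inside the control range. Laminin chains had 0 of 8 called, all 8 positive and a median of 0.24 that was 0.06 with the offset. Matrix proteases and their inhibitors had MMP2 and ADAMTS9 called higher among 34, with a median of 0.51 that was 0.09 with the offset, and 4 were called without vector control replicate 3. Among 17 integrin subunits ITGB8 was called higher and ITGB3 lower. ITGB3 shares 35.9% of its exon bases with another gene.

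For mesenchymal differentiation, SNAI2 was the only called gene of 14 regulators and markers, whose median was 0.49, or 0.18 with the GC offset. VIM was at a mean of 1070 CPM in EMX1-X1 cells and CDH2 at 18.1 CPM, with adjusted p of 0.726 and 0.609 against vector control. Among TGF-beta and BMP ligands and receptors, TGFBR2 and INHBB were called higher of 27, where 1.95% of all genes were called higher. Among their inhibitors and targets, BAMBI, a decoy receptor, and CHRD, the BMP antagonist chordin, were called higher of 23. The medians of the 2 lists were 0.21 and 0.30, or 0.13 and 0.20 with the GC offset. With 1 library left out the called counts were 1 to 4 and 1 to 3. BAMBI was at 1.8, 1.92 and 3.34 CPM in vector control against 3.91, 4.9 and 6.78 CPM, and CHRD at 8.09, 6.94 and 8.24 CPM against 12.1, 20.2 and 16.4 CPM. Both had groups apart. With the GC offset the log2 fold change of BAMBI went from 1.14 to 1.06 and that of CHRD from 1.06 to 0.61. INHBB, an inhibin beta chain, was below 1 CPM in all 6 libraries.

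The stem and progenitor lists, of 11 and 30 members, held 1 and 2 calls, where 1.95% of all genes were called higher. With 1 library left out the counts were 0 to 2 and 1 to 3. KLF4, a reprogramming factor, was the only called gene of 11 liver cancer stem and progenitor markers, at 0.171, 0.0873 and 0.247 CPM in vector control against 0.541, 0.582 and 0.444 CPM. SNAI2 and KIT, a growth factor receptor, were called higher among 30 neural crest and mesenchymal stem cell factors, with a list median of 0.19. KIT overlapped between groups, and both KIT and KLF4 stayed under 1 CPM in all 6 libraries and rest on few counts. Receptor tyrosine phosphatases had PTPRK and PTPRD called higher of 14, with a median of 0.37 that was 0.12 with the offset. PTPRD was at 0.3, 0.611 and 0.206 CPM in vector control against 0.915, 0.914 and 0.929 CPM, apart.

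Guidance molecules moved in both directions. Semaphorins and their plexin receptors had SEMA6C, SEMA6B, SEMA5A, SEMA7A and SEMA4A called higher and SEMA3D lower among 27 members, with a median of 0.39 that was 0.08 with the GC offset. With the offset, or with the side of the first component as a covariate, 3 members were called in place of 6. SEMA5A, at 45.6% GC the least GC-rich of the 5, was at 5.48, 3.36 and 4.24 CPM in vector control against 8.61, 9.02 and 10.2 CPM. Its groups were apart, and its difference was 0.99 on side A and 1.16 on side B. Ephrins, SLIT-ROBO and netrins had EFNA4, an ephrin-A ligand, called higher and EPHA7 lower among 32, and 6 members were called without EMX1-X1 replicate 1. EFNA4 was at 5.48, 3.67 and 5.52 CPM against 7.03, 12.1 and 11.7 CPM, without overlap.

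WNT ligands, receptors and inhibitors had WNT9A, WNT4 and the receptor FZD8 called higher and WNT16 lower among 39 members, where 2.5% of all genes were called, with a median of 0.24. The count of 4 was 1 with the GC offset or without EMX1-X1 replicate 2, and 2 without EMX1-X1 replicate 3. WNT9A was at 5.1, 3.62 and 3.3 CPM in vector control against 5.87, 11.1 and 11.8 CPM, with EMX1-X1 replicate 1 just above the highest control. WNT4 overlapped, since EMX1-X1 replicate 1 held 1.46 CPM and the controls held 1.31 to 1.63 CPM. Its difference on side A was 0.00 and on side B 1.30. NKD2, an inhibitor of WNT signalling, was the only called gene of 16 beta-catenin targets, and its groups overlapped too. WNT16 was at 1.11, 1.53 and 1.57 CPM against 0.957, 0.208 and 0.283 CPM, apart.

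All 19 Notch ligands, receptors and targets had a positive fold change, as had 51.1% of all genes, but 0 were called, and the median of 0.68 was 0.22 with the GC offset. The medians on sides A and B were 0.14 and 0.71. NOTCH3, a receptor, was at 92.6, 86.1 and 96.3 CPM in vector control against 92.5, 190 and 179 CPM, so that EMX1-X1 replicate 1 lay within the controls. HEY1, a transcriptional target, was at 4.28, 4.98 and 3.87 CPM against 6.53, 7.27 and 8.44 CPM, with groups apart (log2 fold change 0.76, SE 0.21, adjusted p = 0.464). Both were picked after their values were seen, as an overlapping and a separated member. For 8 of the 19 the EMX1-X1 libraries all stood above the controls, as for 8.03% of all genes tested. Without EMX1-X1 replicate 1, 4 members were called, and without vector control replicate 1 or 3, 2 were.

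Of 67 potassium, sodium and calcium channel subunits chosen by a pattern in their symbols, 5 were called higher and 0 lower, KCNA1 and KCNA3 with KCNK13, CACNA1E and KCNN4. The pattern does not match KCNMA1, which was also called higher and is not in these counts. Without EMX1-X1 replicate 1 the count was 9. The median was 0.35, or 0.08 with the GC offset, and KCNA3 at its bound leaves the median where it is. CACNA1E, a calcium channel pore subunit, was at 1.2, 1.92 and 0.948 CPM in vector control against 3.25, 2.49 and 3.31 CPM, and KCNN4, a calcium-activated potassium channel, at 1.8, 1.92 and 2.6 CPM against 3.91, 4.74 and 5.82 CPM. The groups were apart in both. KCNK13, a background potassium channel, was at 0.214, 0.349 and 0.206 CPM against 0.957, 1.25 and 0.687 CPM, apart.

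Homeobox genes other than EMX1 were taken in HOX and non-HOX lists. None of the 33 HOX genes tested was called, with a median of 0.16. Among 74 other homeobox genes, SATB1, PKNOX2, IRX4 and RAX were called higher, with a median of 0.27 that was 0.08 with the GC offset. The count of 4 was 2 with the offset or without vector control replicate 2, and 8 without EMX1-X1 replicate 1. PKNOX2 was at 0.257, 0.96 and 0.33 CPM in vector control against 1.83, 1.79 and 1.49 CPM, apart, with 1.68 on side A and 2.05 on side B. RAX, a regulator of eye development, was at 2.91, 3.01 and 4.7 CPM against 2.83, 8.48 and 10.6 CPM, and overlapped. IRX4 was at 0.791 CPM in EMX1-X1 replicate 1, against 0.783 CPM in the highest control. Cortical neuron genes, the tissue in which EMX1 is best known, had 0 of 16 called and a median of 0.39, or 0.15 with the offset.

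Among liver genes, ALB was called higher of 10 plasma proteins of hepatocytes and PROX1 of 16 lineage transcription factors. ALB was at 0.642, 0.436 and 0.742 CPM in vector control against 0.832, 1.58 and 1.53 CPM, and PROX1 at 0.128, 0.48 and 0.495 CPM against 1.46, 0.956 and 1.05 CPM. The groups were apart in both, at levels far below those of VIM and FN1. The list medians were -0.08 and 0.26, and -0.14 and -0.03 with the GC offset.

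EGFR, the receptor tyrosine kinase that the study followed, did not reach the 2-fold rule. It was at 13.4, 15.5 and 15.5 CPM in vector control and at 22.8, 22.2 and 20.8 CPM in EMX1-X1 libraries. The groups were apart, and the log2 fold change was 0.57 (SE 0.18, adjusted p = 0.526), with 0.66 on side A and 0.47 on side B. EMX1-FL libraries held 33, 34 and 25.3 CPM, and EMX1-FL was 0.49 above EMX1-X1 on the log2 scale (SE 0.18, adjusted p = 0.611). Of 8 ERBB receptors and ligands 0 were called, and of 26 ERK feedback and output genes only JUNB was, with EMX1-X1 replicate 1 at 24.7 CPM inside the control range of 21.5 to 26.8 CPM.

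Growth factor and stress lists held scattered calls. IGFBP3 and IGFALS were called higher among 15 IGF ligands, receptors and binding proteins, CCN1 and IGFBP3 among 25 YAP and TEAD targets, and ADM and EGLN3 among 34 glycolysis and hypoxia genes. IGFBP3 was at 0.343, 0.96 and 0.453 CPM in vector control against 1.17, 1.21 and 1.45 CPM, apart. Among 27 CDK inhibitors and p53 targets PHLDA3 and BBC3 were called higher, among 13 BCL2 family genes BMF and BBC3, and among 37 unfolded protein and amino acid stress genes NUPR1. The CDK inhibitor and p53 list had 6 calls without EMX1-X1 replicate 1 and 0 without EMX1-X1 replicate 2 or 3. PHLDA3 and BBC3 overlapped between groups, their EMX1-X1 replicate 1 lying within the controls at 3.95 and 6.28 CPM, while BMF, at 0.685, 0.305 and 0.701 CPM against 1.62, 1.66 and 1.94 CPM, did not.

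Lists of growth, translation and metabolism held no call. Of 50 cell cycle and DNA replication genes 0 were called and the median was -0.01, and of 79 cytosolic ribosomal protein genes 0 were called and the median was -0.03. Cholesterol and fatty acid synthesis genes had 0 of 34 called with a median of 0.05, and nuclear oxidative phosphorylation subunits 0 of 85 with 0.02.

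Other lists held no call either, but several had medians above the 0.01 of all genes. Epithelial markers, 0 of 9 called, had a median of 0.40 that was 0.27 with the GC offset, and 3 of the 9 stood above the controls in every EMX1-X1 library. FGF ligands and receptors, 0 of 15 called, had a median of 0.35 that was 0.10 with the offset. Chemokines and inflammatory cytokines, 0 of 10 called, had 0.30 and 0.11. Replication-dependent histone genes, 0 of 29 called, had 0.23 and 0.22, and ABC transporters, 0 of 30 called, had 0.19 and -0.01. Interferon-stimulated and MHC class I genes had 0 of 33 called and a median of 0.12, and cadherins and protocadherins 0 of 75 and -0.01. Fibroblast and stellate cell markers had 0 of 11 called and a median of -0.02, and the few endothelial and immune markers that passed the filter, 4 and 1, had 0 called.

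Transcripts of the mitochondrial genome were lower as a group. They took 6.96, 7.47 and 8.18% of all counts in the vector control libraries and 5.97, 4.31 and 4.56% in the EMX1-X1 libraries, with groups apart. All 15 tested transcripts were lower in EMX1-X1 cells, with fold changes from -0.88 to -0.34 and a median of -0.65 on the log2 scale. In 12 of the 15 every EMX1-X1 library was below every control, as for 6.67% of all genes tested. 0 were called by the 2-fold rule, or 3 without EMX1-X1 replicate 1. In the edgeR fit 11 had an unadjusted p under 0.05, as had 8.11% of all genes, and adjusted p lay between 0.31 and 0.746.

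MT-RNR1, the small mitochondrial ribosomal RNA, was at 815, 930 and 894 CPM in vector control and at 594, 447 and 541 CPM in EMX1-X1 libraries, clearly apart (log2 fold change -0.74, SE 0.16, adjusted p = 0.31). It had the smallest p of the 15 and was picked for that. The list median was -0.60 with the GC offset, and -0.33 on side A and -0.99 on side B. EMX1-FL libraries held shares of 3.84, 6.67 and 5.69%, which overlap those of EMX1-X1 and also lie below every vector control share. The part of the first component in this difference was not tested beyond these values.

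EMX1-FL and EMX1-X1 were compared with each other directly, since both were set against the same 3 controls. The contrast of EMX1-FL with EMX1-X1 gave 263 genes at the same unadjusted rule, or 1.42% of those tested, and 0 after adjustment in the edgeR fit, with 1418 genes at an unadjusted p under 0.05 and 1 gene after adjustment by DESeq2. Of the 81 named genes, 7 met the unadjusted rule, which were SEMA6B, DLG2, SEMA4A, WNT4, IRX4, FZD8 and ITGB3. SEMA6B was at 131, 60.3 and 89.4 CPM in EMX1-FL libraries, spanning the controls, and differed from EMX1-X1 by -1.15 on the log2 scale (SE 0.34, adjusted p = 0.611). SEMA4A was at 2.93, 1.68 and 1.43 CPM in EMX1-FL and 3.58, 5.69 and 5.25 CPM in EMX1-X1 libraries, without overlap, a difference of -1.26 (SE 0.36, adjusted p = 0.611). With the GC offset only DLG2, SEMA4A and ITGB3 of these met the rule.

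The genes with the smallest p against vector control were also high in EMX1-FL cells. SATB1 was at 2.71, 2.11 and 2.91 CPM, SOX11 at 5.41, 4.38 and 3.88 CPM and PLAAT1 at 4.35, 3.5 and 3.37 CPM in the EMX1-FL libraries. Their differences from EMX1-X1 were -0.31 (SE 0.32, adjusted p = 0.698), -0.19 (SE 0.23, adjusted p = 0.747) and 0.13 (SE 0.24, adjusted p = 0.837) on the log2 scale. These were smaller than the differences of either group from the shared controls. The genes were picked by their p against those same controls. Low control values raise both differences, so this pattern is partly built in by the choice. PTPRK, at 30, 36.9 and 41.7 CPM, and MMP2, at 7.32, 5.9 and 5.68 CPM, differed from EMX1-X1 by 0.25 (SE 0.19, adjusted p = 0.631) and -0.07 (SE 0.25, adjusted p = 0.915). KCNMA1, at 32.4, 30 and 31.5 CPM in EMX1-FL cells, lay below all 3 EMX1-X1 libraries, by -0.42 (SE 0.18, adjusted p = 0.611).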

How the data were processed

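Libraries of SNU-398 cells were assigned to 3 groups of 3 from their labels. The table that the authors deposited holds counts of read pairs for each gene name, not normalized. The table header names featureCounts 2.0.1 on STAR alignments with Ensembl release 99 (GRCh38), unstranded, whereas the submitters' processing notes name featureCounts 2.0.6 and the methods name RSEM. The authors also deposited values on a log2 scale, log2(TPM + 1), which were recomputed from the counts and listed lengths to within 4.98e-06.

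The members and the gene lists were chosen with earlier results of these data known. Counts were fitted with edgeR 4.0.16 in R 4.3.3 over all 9 libraries (filterByExpr, TMM factors, quasi-likelihood F test, contrast EMX1-X1 minus vector control), with Benjamini-Hochberg adjustment over the 18574 genes tested. The rule for a call was the study's, unadjusted p under 0.05 with a log2 change of 1 or more in either direction. CPM values use TMM library sizes. GC content was taken from the longest GENCODE 29 transcript for 17941 genes. The GC offset was a loess curve (span 0.3) per library. The fits recovered known changes in simulated counts. The simulation held no GC-related difference between libraries and changed only well-counted genes. It therefore does not cover the first component or weakly expressed genes.

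Named genes were EMX1, EGFR, called members of the 47 lists and, among called genes with groups apart and a mean of at least 1 CPM, the 15 per direction with the smallest p and the 5 with the largest difference in CPM. The alternatives were DESeq2 1.42.0, limma 3.58.1 applied to TPM on a log2 scale with a pseudocount of 1 or 0.1, RLE and upper-quartile factors, 2 other filters, the 6 libraries alone, a replicate block, the GC offset, the side of the first component, and leaving out each library. Total counts per library were 21562703 to 25197970, and relative counting error is smallest for the genes with most counts.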

Additional observations from a re-analysis of the deposited data

How the results depend on the processing

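The count of 464 called genes was 177 with limma on log2(TPM + 1), 962 with no filter beyond 1 count and 214 with at least 10 counts in every library, where fewer genes were tested. The 363 higher genes were then 138, 628 and 178, and 237 with the GC offset and the replicate block together. The 101 lower genes were 39, 334 and 36. Leaving out 1 library gave 311 to 906 called, 227 to 660 higher and 78 to 246 lower genes. After adjustment EMX1 alone passed in the main fit and whichever library was left out, but 48 genes passed with DESeq2, 3 with limma on log2(TPM + 0.1), 112 without the filter, 24 with the GC offset, 4 with the offset and the replicate block, 27 with the side of the first component as a covariate and 37 with that covariate and the offset. The causes of the larger counts were not tested. The comparison of EMX1-FL with EMX1-X1, whose alternatives were added after seeing the data, called 7 of 81 named genes, and 1 with limma on log2(TPM + 1), 3 with the GC offset, with the offset and block or with the covariate, 2 with the covariate and the offset, and 3 to 14 with 1 library left out.

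The residuals of same-numbered vector control and EMX1-X1 libraries correlated at 0.15, -0.11 and 0.29, and those of differently numbered ones at -0.31 to 0.25. With 3 libraries per group these overlapping values cannot decide whether the replicate numbers pair the libraries. The replicate block gave 407 called genes, 319 higher and 88 lower, and 1 after adjustment. None of the 81 named genes changed direction in any of the 19 alternatives, and 9 kept the same call or lack of one in all that tested them. All of them but EGFR were called in the main fit on these same libraries. The unchanged direction is therefore largely set by that choice and is no measure of stability. Over all alternatives there were 323 losses of a call, 60 of them with limma on log2(TPM + 1), 30 with the covariate and the offset and 28 each with the GC offset, with and without the block. limma on log2(TPM + 0.1) moved the median of all genes by 0.10 on the log2 scale. With 3 libraries per group and low counts for most called genes, depth limits single genes under 1 CPM, and no label gives a batch for the first component, which lies partly along the groups.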
